A study of Ulva lactuca with 4 samples.

Results

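In Ulva lactuca, a green seaweed of the shore, 151 contigs were at least 4-fold lower at 72 h of desiccation than in submerged thalli. At 24 h and at 36 h these contigs were within 2-fold of the submerged thalli, with a median ratio of 0.74 at 36 h. They were 151 of the 105451 contigs of the assembly, or 0.143%, and lay in 103 of its 70737 clusters. Total RNA of thalli acclimated to the laboratory was sequenced in 4 libraries, 1 for each condition: a control that was always submerged, and thalli kept at 20% moisture for 24 h, 36 h or 72 h of desiccation. The labels call the counts a re-analysis of earlier samples with another assembly. The libraries held between 52643595 reads on contigs (control) and 74243310 (24 h), with 53279365 at 72 h. With 1 library per condition there is no spread between samples to set a difference against, so all values below compare libraries, every interval is an exact 95% interval for counting error alone, and no p-value was computed. The sources used here do not say at which of these times the control was taken.

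Members were chosen by their values in these libraries, in the following way. Reads were divided by a size factor for each library to give scaled counts, and each desiccated library was set against the control as the ratio of scaled count + 1. A member had at least 50 scaled counts in the control, a ratio of 0.25 or less at 72 h, and ratios between 0.5 and 2 at both 24 h and 36 h. These ratios are therefore a description of the choice and not a result. Of the 38049 contigs with the control minimum, 2645 (6.95%) were at 0.25 or less at 72 h, and 19285 met the conditions on 24 h and 36 h, of which the members were 0.783%.

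Thalli of Ulva are thin sheets without a waxy surface or internal water transport, and they lose most of their free water when the tide exposes them. Known responses of intertidal algae to drying include lower photosynthesis and growth, protective proteins and scavengers of reactive oxygen. A contig is a transcript sequence put together from reads, and those whose names agree in both the c and the g number belong to 1 assembly cluster, which can stand for 1 gene or a few like genes. The tables used here do not pair contigs with genes or proteins, so contigs are named by identifier and no function is given to any of them. In RNA of thalli, fewer living cells of a kind and less RNA per cell cannot be told apart.

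As a set, the members had a median of 210 scaled counts in the control, 225 at 24 h, 150 at 36 h and 29.2 at 72 h. Relative to the control their median stood at 0.96 at 24 h, 0.74 at 36 h and 0.182 at 72 h, beside 0.993, 0.968 and 0.942 for the 19134 contigs that met the same conditions except that on 72 h. The word lost fits few of them in the strict sense: 1 member had 0 reads at 72 h, 2 had 1 read, 22 had fewer than 10 and 56 fewer than 20. The others kept reads at a reduced level. At 72 h 60 members were above 0.2, while 34 were lower by 8-fold or more and 5 by 16-fold or more. The members together took 0.552% of the reads of the control, 0.507% at 24 h, 0.362% at 36 h and 0.0901% at 72 h. Without the 3 most abundant members the shares were 0.205%, 0.138%, 0.169% and 0.0314%.

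**Figure D1:**
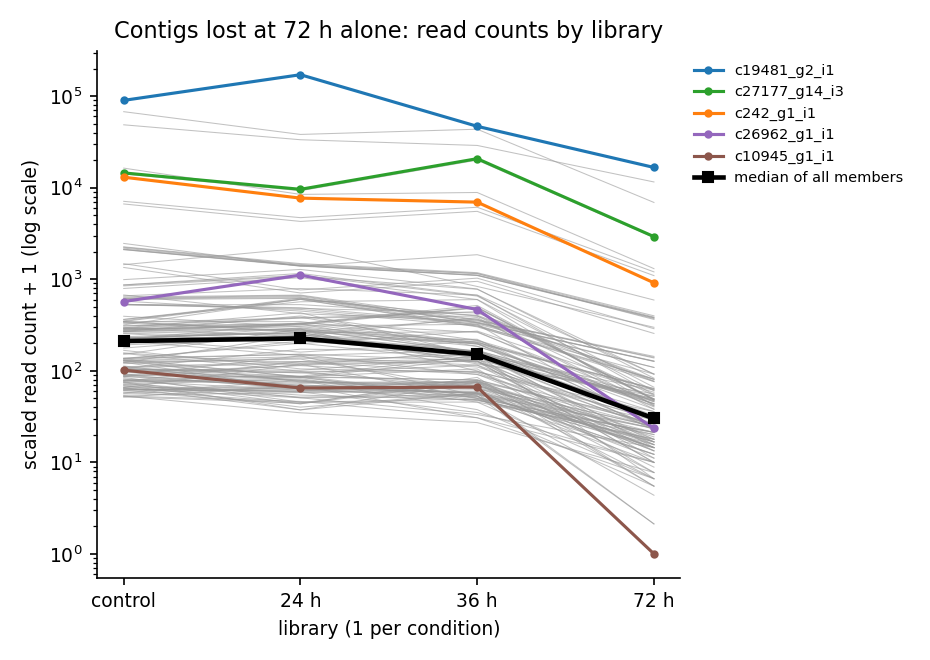
Scaled read count + 1 of each of the 151 members (grey lines, log axis) in the 4 libraries, with 5 named members in colour and the median of all members in black. The median stays near 200 in the control and at 24 h, is 150 scaled counts at 36 h and 29.2 at 72 h, and the rule that chose the contigs fixes the low values at 72 h.

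Control levels of the members ran from 50.9 to 90010 scaled counts. There were 43 members under 100 scaled counts, 37 at 500 or more, 19 at 1000 or more and 7 at 10000 or more. The 3 most abundant made up 65.1% of the scaled counts of all members at 72 h and 62.9% in the control. The most abundant, c19481_g2_i1, had 90010 scaled counts in the control, 171664 at 24 h, 46867 at 36 h and 16653 at 72 h, so that 72 h over control was 0.185 (95% interval 0.182 to 0.188, from scaled counts with nothing added, as for every printed ratio with an interval below). This contig was highest at 24 h and had the lowest ratio of 36 h to 24 h among the members, 0.273 (0.27 to 0.276), so a large part of its reads was already missing at 36 h relative to 24 h. Next came c25923_g2_i1 with 67736 scaled counts in the control, 38213 at 24 h, 43574 at 36 h and 6906 at 72 h, with 72 h over control at 0.102 (0.0993 to 0.105). The contig c14360_g1_i1 had 48690 in the control, 33436 at 24 h, 28969 at 36 h and 11561 at 72 h, with 72 h over control at 0.237 (0.232 to 0.243). Both were below the control in each desiccated library and lowest at 72 h. The contig c12903_g1_i1 had 16376 scaled counts in the control, 8452 at 24 h, 8871 at 36 h and 1306 at 72 h, with 72 h over control at 0.0797 (0.075 to 0.0846). At 24 h and 36 h it stood close to the lower limit of 0.5 that members had to reach.

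The deepest losses, ranked by the upper end of the interval, were found at low and at high levels. The contig c10945_g1_i1 had 89 reads in the control, 72 at 24 h, 75 at 36 h and 0 at 72 h. The exact interval of its ratio of 72 h to control ended at 0.0421. With 3 reads put in the place of 0 it was 29.8-fold lower at 72 h, a value that leaves out the counting error of the control. The interval also allows a smaller loss. No other member was without reads at 72 h. The contig c24474_g1_i2 had 78 reads in the control, 163 at 24 h, 60 at 36 h and 1 at 72 h, which in scaled counts is a ratio of 0.0127 (0.000319 to 0.0731). Its single read leaves the size of the loss uncertain by more than 100-fold. A better measured case was c26962_g1_i1, with 504 reads in the control, 1250 at 24 h, 534 at 36 h and 20 at 72 h, with 72 h over control at 0.0394 (0.0239 to 0.0616). That contig, like c24474_g1_i2, had most reads at 24 h. The contig c242_g1_i1 had 11529 reads in the control, 8667 at 24 h, 7975 at 36 h and 813 at 72 h, with 72 h over control at 0.0701 (0.0652 to 0.0753). Of the 4, c242_g1_i1 and c10945_g1_i1 had fewer scaled counts in each desiccated library than in the control.

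**Figure D2:**
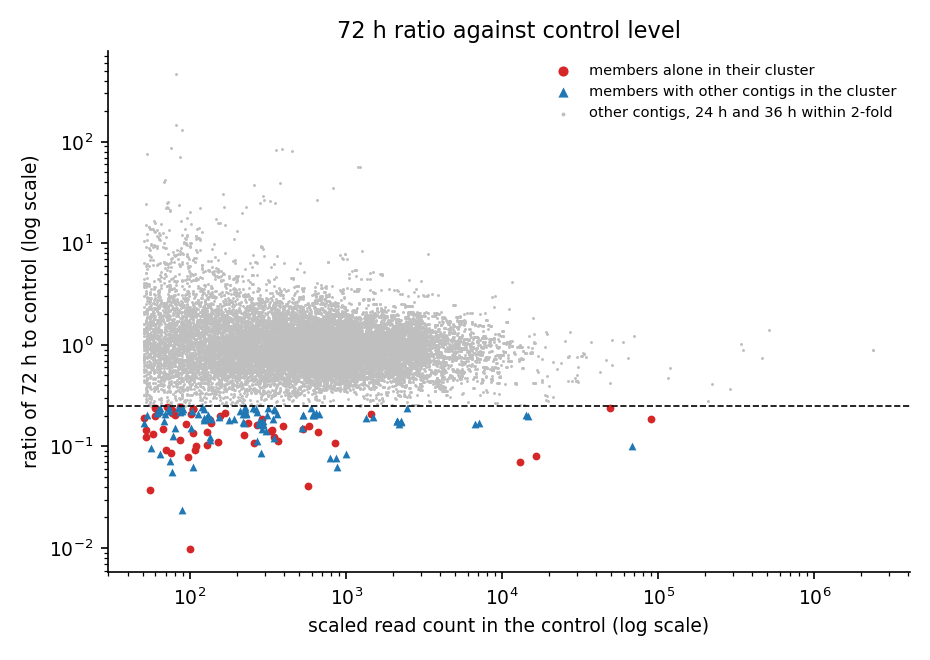
Ratio of 72 h to control against the scaled read count in the control (both axes logarithmic) for the members, split by whether their cluster holds other contigs, and for the 19134 contigs with the same conditions on the control, 24 h and 36 h. The dashed line is the threshold of 0.25; members lie under it from 50.9 to 90010 scaled counts, and the 1 member without reads at 72 h is the lowest point because 1 was added to both counts.

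How firmly a contig belongs to the set depends on its reads. The interval of the 72 h ratio lay wholly at or below 0.25 for 75 of the 151 members, and wholly below 0.5 for all 151, with the highest upper end at 0.427. The intervals at 24 h and 36 h lay wholly between 0.5 and 2 for 67 members, and 37 had all 3 intervals inside the rule. Just inside the 72 h threshold stood c15356_g1_i1, with 16.9 scaled counts at 72 h and 71.2 in the control and a ratio with 1 added of 0.247, and c27987_g3_i2, with 55.1 at 72 h and 226 in the control, also at 0.247. Just outside it, with the other conditions met, stood c26847_g1_i3 at 0.251, with 22.5 scaled counts at 72 h and 92.7 in the control, and c27993_g2_i1, also at 0.251, with 42.7 at 72 h and 173 in the control. Between 0.25 and 0.3 at 72 h lay 127 contigs that met the other conditions, against 60 members between 0.2 and 0.25. The limit at 36 h cut deeper: 101 contigs missed membership with a 36 h ratio between 0.4 and 0.5 and 342 with a ratio below 0.4, while 6 had one above 2. At 24 h the corresponding numbers were 27, 149 and 17. With the upper quartile as scaling, 273 contigs met the rule, 148 of the 151 among them. With library totals 144 did, with 136 in common.

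The course before 72 h differed among members. At 24 h, 79 of the 151 were below the control (52.3%), beside 50.7% of the 19285 contigs within 2-fold at both times. At 36 h, 111 were below it (73.5%), beside 53.0%. Both ratios share the control with the rule, and nothing is read from these shares. Of the contigs chosen in the same way for being low at 24 h alone, 75.8% were below the control at 36 h and 78.1% at 72 h, and of those low at 36 h alone 82.0% were below the control at 24 h and 74.8% at 72 h. The members' share at 36 h was close to these and their share at 24 h was lower. At 36 h, 49 members (32.5%) had a ratio below 0.6, beside 9.24% of the 19285. This share depends on the shared control as well, and the sets chosen in the same way came near it. The lower quartile of the 36 h ratio was 0.578 for the members and 0.582 for contigs low at 24 h alone. For contigs low at 36 h alone the lower quartile of the 24 h ratio was 0.596. By the rule 72 h was highest for no member, so the highest library is set beside the 14346 of the 19285 contigs whose highest was not 72 h. It was the control for 64 members (42.4%, beside 35.3%), 24 h for 54 (35.8%, beside 36.6%) and 36 h for 33 (21.9%, beside 28.2%). The rule divides by the control and so favours a high control count, and nothing is read from these shares either. The rule also favours a low 72 h value. Scaled counts were fewer at each later time for 42 members (27.8%), beside 8.68% of the 19285. The rule fixes the step from 36 h to 72 h for every member, whereas the 19285 had to meet it too, so these shares are not like for like.

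The ratio of 36 h to 24 h uses neither the control nor 72 h, and the rule treats these libraries alike. It was below 1 for 96 of the 151 members (63.6%), beside 52.1% of the 19285 contigs within 2-fold, and its median was 0.811, beside 0.983 for the 19134 that were no members. Its interval lay wholly below 1 for 73 members and wholly above 1 for 27, which is 48.3% and 17.9%, beside 38.4% and 35.3% of the 19285. Contigs of 1 cluster can share reads, however. With 1 contig taken per cluster, 59 of 103 members (57.3%) were below 1, beside 54.3% of 5648 others, and the medians were 0.904 and 0.962. Among contigs alone in their cluster 31 of 55 members (56.4%) were below 1, beside 58.4% of 1331 others. Counted in these ways the members stood close to the other contigs. At the other end were c27177_g14_i3 and c27177_g14_i4, with ratios of 36 h to 24 h of 2.16 (2.11 to 2.21) each. The contig c27177_g14_i3 had 14514 scaled counts in the control, 9607 at 24 h, 20764 at 36 h and 2922 at 72 h, and c27177_g14_i4 had 14141, 9278, 20020 and 2861. Another cluster lost as a whole held c19211_g1_i1, with 7101 scaled counts in the control, 4709 at 24 h, 6118 at 36 h and 1203 at 72 h, and 72 h over control at 0.169 (0.159 to 0.181). Nearest to the control at both 24 h and 36 h were c23663_g1_i2, c23297_g1_i2 and c23014_g1_i1. The first of these had 64.4 scaled counts in the control, 63.1 at 24 h, 63.7 at 36 h and 13.5 at 72 h, with 72 h over control at 0.209 (0.102 to 0.394). The other two had control levels of 62.2 and 76.9 scaled counts and 72 h ratios of 0.217 (0.106 to 0.41) and 0.205 (0.106 to 0.367).

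Set directly against the earlier desiccated libraries, 72 h was the lowest of the 4 libraries for all 151 members, which the rule fixes. Of the members, 84 (55.6%) were at 0.25 or less in 72 h over 36 h, beside 1.07% of the 38049 contigs with the control minimum, and 109 (72.2%) in 72 h over 24 h, beside 3.45%. Of the 19285 contigs within 2-fold at 24 h and 36 h the shares were 0.482% over 36 h and 1.13% over 24 h. The median ratio was 0.223 over 36 h and 0.181 over 24 h, and its interval lay below 1 for every member in both comparisons. The rule held these ratios at or below 0.5 apart from the added 1, so the counts describe the members and are no further evidence of a loss. Between members the step from 36 h varied widely. For c26962_g1_i1 the ratio of 72 h to 36 h was 0.0482 (0.0292 to 0.0752), for c242_g1_i1 0.131 (0.122 to 0.141), for c19481_g2_i1 0.355 (0.349 to 0.362), and for c14360_g1_i1 0.399 (0.39 to 0.408). The contig c26962_g1_i1 was at 0.818 of the control at 36 h, so most of its difference lay between 36 h and 72 h, whereas c14360_g1_i1 was already at 0.595 and c19481_g2_i1 at 0.521.

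The number of contigs in a cluster was not used by the rule. Of the 151 members, 55 were the sole contig of their cluster (36.4%), beside 7.19% of the 19285 contigs within 2-fold at 24 h and 36 h and 10.3% of the 38049 with the control minimum. Over the 4 levels below, the others with fewer reads were more often alone. The members had fewer reads (median 210 scaled counts in the control, beside 661 for the 19134 others), so the share was also taken by level. It was 20 of 43 members (46.5%) beside 22.5% of the others at 50 to 100 scaled counts in the control, and 15 of 32 (46.9%) beside 12.9% at 100 to 200. At 200 to 500 it was 10 of 39 (25.6%) beside 7.04%, and at 500 or more 10 of 37 (27.0%) beside 3.35%. The share was higher among members at each of the 4 levels. The level of 500 or more has no upper limit and is not matched within. It held 7 of 37 members at 10000 or more but 175 of 11093 others, and 29.1% of those 175 were alone. Counted by cluster, 55 of the 103 that hold a member had a single contig (53.4%), beside 23.6% of the 5648 that hold one of the others. Clusters of a single contig made up 19.7% of those with a contig low at 24 h alone, 26.9% of those with one low at 36 h alone and 11.2% of those with one at least 4-fold higher at 72 h alone. By level, contigs low at 24 h alone came near the members at 100 to 200 scaled counts, with 10 of 24 alone (41.7%), but not at 50 to 100 (6 of 31, 19.4%), 200 to 500 (7 of 46, 15.2%) or 500 or more (3 of 246, 1.22%). Those low at 36 h alone were alone in 8 of 24 cases (33.3%) at 50 to 100, 4 of 26 (15.4%) at 100 to 200, 4 of 31 (12.9%) at 200 to 500 and 2 of 30 (6.67%) at 500 or more. Of the 7 members at 10000 or more scaled counts in the control, c19481_g2_i1, c14360_g1_i1, c12903_g1_i1 and c242_g1_i1 were alone and c25923_g2_i1, c27177_g14_i3 and c27177_g14_i4 were not, beside 29.1% alone of the 175 others at that level. Contig length is not given in the tables used here, and its part in this share was not tested.

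**Figure D3:**
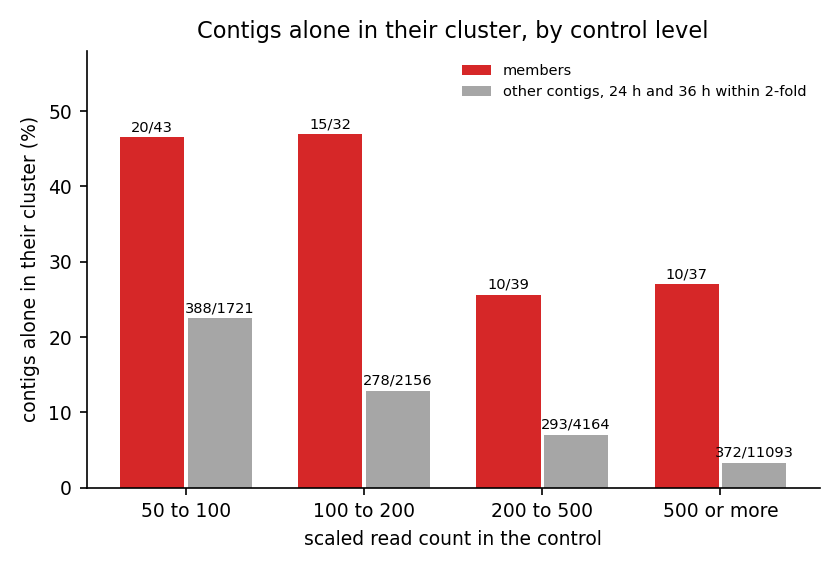
Percent of contigs that are the sole contig of their cluster, by scaled read count in the control, for the members (red) and for the other contigs within 2-fold of the control at 24 h and 36 h (grey), with the numbers of contigs above the bars. The members' bar is the higher at each level, from 46.5% beside 22.5% at 50 to 100 scaled counts to 27.0% beside 3.35% at 500 or more.

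The remaining 96 members lay in 48 clusters of 2 to 17 contigs, and 24 of the 103 clusters held 2 or more members, 72 in all. In 23 of these 24 the intervals of the 72 h ratio overlapped for all members of the cluster. Such contigs can share the same reads, so they are not separate observations. The rule also held every member at 0.25 or less at 72 h, so the overlap is partly fixed by the choice. The largest family was c26162_g1, with 9 members among 12 contigs, whose control levels ran from 123 to 640 scaled counts. All 9 were close to the control at 24 h (ratios, here and for the other families with 1 added, 0.96 to 1.08), lower at 36 h (0.514 to 0.638) and lowest at 72 h (0.15 to 0.215). In c24415_g1 6 of 12 contigs were members and 1 of the others, c24415_g1_i9, was 2.05-fold higher than the control at 72 h. The members, at 2106 to 2260 scaled counts in the control, stood at 0.649 to 0.667 at 24 h, 0.518 to 0.526 at 36 h and 0.166 to 0.18 at 72 h. A different course was seen in c25710_g1, where 6 of 8 contigs were members. These stood at 1.08 to 1.17 at 24 h and at 1.73 to 1.82 at 36 h, and then at 0.164 to 0.24 at 72 h. In c28138_g1 all 6 contigs were members, at 1.27 to 1.39 at 24 h, 0.756 to 0.921 at 36 h and 0.0633 to 0.183 at 72 h. This was the cluster whose 72 h intervals did not all overlap: c28138_g1_i3 had a ratio of 0.0622 (0.0455 to 0.0833), and c28138_g1_i5 one of 0.169 (0.113 to 0.246).

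Some members of different clusters shared the c number above the cluster. In 7 cases contigs of 2 clusters with the same c number were members, 23 contigs in all. How often other contigs share a c number in this way was not counted, so no grouping of members is read from this. Both contigs of c28138_g4 were members beside the 6 of c28138_g1, and the summed count of c28138_g4 was 418 scaled counts in the control, 458 at 24 h, 449 at 36 h and 38.2 at 72 h. Both contigs of c27177_g3 were members beside 2 of c27177_g14. Their sum was 139 in the control, 79.1 at 24 h, 157 at 36 h and 8.99 at 72 h, against 28924, 19106, 41324 and 5833 for c27177_g14. Both clusters were lower at 24 h than in the control and higher at 36 h, at levels more than 100-fold apart.

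**Figure D4:**
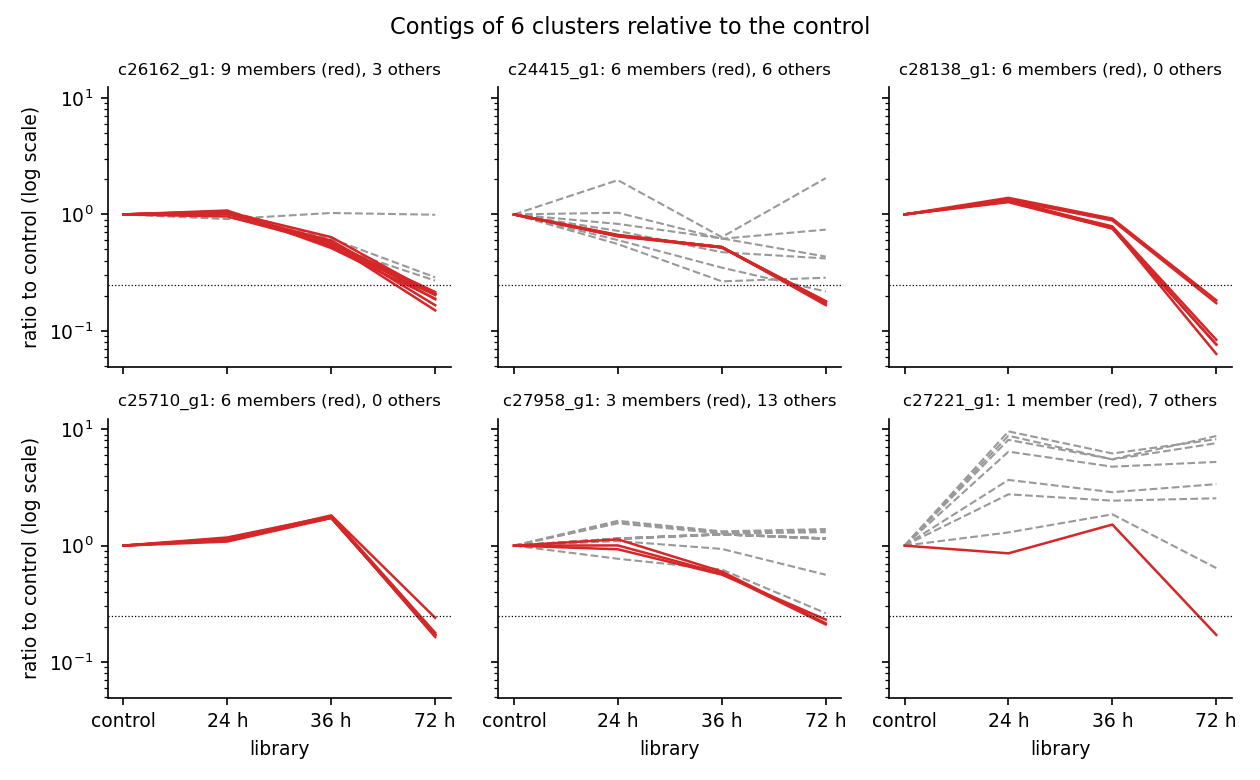
Ratio to the control (log axis, control set to 1) in the 4 libraries for the contigs of 6 clusters, with members as red lines and other contigs of the cluster with at least 50 control counts as dashed grey lines; the dotted line marks 0.25. In the first 4 clusters the members run together and end between 0.0633 and 0.24, and in the last 2, c27958_g1 and c27221_g1, the members end below 0.25 at 72 h while most other contigs of the cluster stand at or above the control.

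Whether the loss held for the whole cluster or for single contigs in it was asked next, with the counts of contigs that were no members. In 31 of the 48 clusters of several contigs the summed count at 72 h was at 0.25 or less of the control, in 14 it lay between 0.25 and 0.5, in 2 between 0.5 and 2, and in 1 it was above 2. The median of the summed ratios was 0.227. The members are part of these sums, and in 11 clusters every contig was a member, so the sums are low in part by the choice. The same count was not made over all clusters of several contigs. The other contigs of the clusters numbered 114, of which 93 had the control minimum. At 72 h, 20 of the 93 (21.5%) were also at 0.25 or less, beside 6.54% of the 37805 contigs outside these clusters. These contigs can share reads with the members, which were chosen as low at 72 h, so their share is not independent of the rule. The 37805 were not limited to clusters of several contigs. Of the 93, the rest were less reduced or higher. A further 43 lay between 0.25 and 0.5, 23 between 0.5 and 2, and 7 above 2. Of the 20, 13 missed membership by a 36 h ratio below 0.5 and 8 by a 24 h ratio below 0.5, with 4 counted in both, and 3 were above 2 at 24 h or 36 h. One of them was c25923_g2_i2, the partner of the second most abundant member, with 22325 scaled counts in the control, 10607 at 24 h, 10088 at 36 h and 1106 at 72 h, with 72 h over control at 0.0495 (0.0464 to 0.0528). It was further below the control at 72 h than the member, and was left out because its ratios at 24 h and 36 h were 0.475 and 0.452. With the upper quartile as scaling, which lowers all 72 h ratios, 34 of the 93 (36.6%) were at 0.25 or less, beside 8.07% of the 37805.

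**Figure D5:**
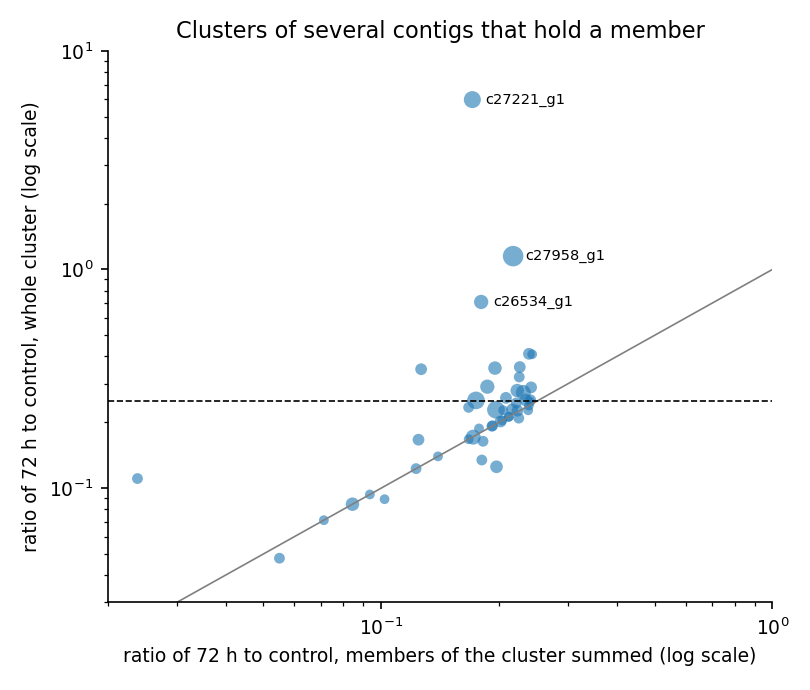
Ratio of 72 h to control for whole clusters against that of their members summed (both axes logarithmic), for the 48 clusters of several contigs that hold a member; larger points have more contigs, the grey line marks equal ratios and the dashed line 0.25. Most clusters lie near the line of equal ratios, and c27221_g1, c27958_g1 and c26534_g1 lie far above it.

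In 3 clusters the members were low at 72 h while the cluster as a whole was not. In c27221_g1 the summed count of 11 contigs was 1424 scaled counts in the control, 9858 at 24 h, 6727 at 36 h and 8519 at 72 h, with 72 h over control at 5.98. Its member c27221_g1_i7 had 50.9, 43.5, 77.7 and 7.87 scaled counts in the same libraries, a ratio of 0.155 (0.0588 to 0.345) from 7 reads at 72 h. The most abundant partner at 72 h, c27221_g1_i3, had 444 in the control, 3913 at 24 h, 2448 at 36 h and 3376 at 72 h, with 72 h over control at 7.6 (6.84 to 8.46). This cluster held 6 of the 7 partner contigs above 2 at 72 h. In c27958_g1, with 17 contigs, the sum was 81151 in the control, 96905 at 24 h, 100893 at 36 h and 93339 at 72 h. Its 3 members i4, i11 and i17 had 228 to 266 scaled counts in the control, 229 to 258 at 24 h, 131 to 149 at 36 h and 47.2 to 60.7 at 72 h. They made up 0.167% of the cluster at 72 h and 0.89% in the control. The partner with most counts at 72 h, c27958_g1_i8, stood at 1.14 of the control (1.11 to 1.18). In c26534_g1 the sum was 5256 in the control, 5320 at 24 h, 5478 at 36 h and 3731 at 72 h, with 72 h over control at 0.71. Its member c26534_g1_i6 had 292, 234, 164 and 51.7 scaled counts, a ratio of 0.177 (0.127 to 0.243), while the partner c26534_g1_i4 had 1067, 1070, 1109 and 760, a ratio of 0.712 (0.644 to 0.787). The sources used here do not say how the authors assigned reads that match several contigs, and with shared reads the counts of single contigs in such clusters are uncertain.

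The same rule turned to other libraries gave 347 contigs low at 24 h alone and 111 low at 36 h alone, beside the 151 at 72 h. The order of 72 h and 24 h depended on the setting: with the upper quartile 273 contigs were low at 72 h alone and 266 at 24 h alone, with no minimum 1035 at 72 h and 770 at 24 h, and with a 2-fold threshold 1966 at 72 h and 1660 at 24 h. At 0.25 or less were 3277 contigs at 24 h (8.61% of those with the control minimum), 2740 at 36 h (7.2%) and the 2645 at 72 h, and by the rule no member was among those at 24 h or 36 h. Of these contigs, those low there alone made up 10.6% at 24 h (347), 4.05% at 36 h (111) and 5.71% at 72 h (151). In the other direction, 355 contigs with the control minimum were at least 4-fold higher at 72 h alone, 16.8% of the 2115 that were 4-fold higher there. The contigs low at 24 h alone lay in 132 clusters, fewer per contig than the 103 of the 151 members. Their median control level was 978 scaled counts, against 210 for the members and 252 for those low at 36 h alone. The 4 comparisons share the control library, and no difference between these numbers was tested, since there is 1 library per condition.

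The 72 h library differed from the others in the number of contigs read, 98649, against 87832 at 24 h, 87806 at 36 h and 81547 in the control. It held 7654 contigs that had 10 or more reads there and no more than 3 in any of the others, which took 0.766% of its reads. None of these lay in a cluster that holds a member, and 1 of the 5635 other clusters with a contig within 2-fold at 24 h and 36 h (0.0177%) held one. Of the 7654, 229 were read in all 4 libraries and so were among the 70998 contigs behind the size factors. Their part in the scaling was not tested.

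In the authors' deposited table of 72 h against the control, 11 of the 151 members had the status down (7.28%), beside 1.5% of the 38049 contigs with the control minimum. None of the members had an adjusted p-value under 0.05 in that deposited table of the authors, beside 0.279% of the 38049, and 12 had an unadjusted one under 0.05 (7.95%), beside 3.75%. The lowest belonged to c242_g1_i1, with a p-value of 0.00524 and an adjusted p-value of 0.406 in the authors' deposited table. In the authors' deposited table of 72 h against 36 h, 25 members had the status down (16.6%), beside 0.647%, and 26 an unadjusted p-value under 0.05 (17.2%), beside 3.7%. In that deposited table of the authors c242_g1_i1 alone (0.662% of the members, beside 0.817% of the 38049) had an adjusted p-value under 0.05, at 0.033. In the authors' deposited table of 72 h against 24 h, 22 had the status down (14.6%), beside 1.21%, and 23 an unadjusted p-value under 0.05 (15.2%), beside 4.07%. In that deposited table of the authors c26962_g1_i1 alone (0.662%, beside 0.46%) passed after adjustment, with 0.0225. In the authors' deposited table of 24 h against the control no member had the status down, a p-value under 0.05 or an adjusted one under 0.05, beside 3.68%, 6.2% and 0.604% of the 38049. In the authors' deposited table of 36 h against the control there was none either, beside 2.48%, 5.15% and 0.363%. The submitters' processing notes name DESeq, with no role given. No replicates measured the spread behind these p-values, and they come from the contrasts that chose the members or share a library with them, so they are given as a description. The shares of the 38049 by p-value take in higher and lower contigs alike, whereas the members were chosen as lower at 72 h.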

How the data were processed

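Read counts per contig, not normalized, were deposited by the authors in 5 tables that each compare a pair of libraries. Tools listed in the submitters' processing notes are Bowtie2, cutadapt and DESeq, with no role given. The sources used here give no versions, settings or assembler, nor how reads that match several contigs were handled. The scaled columns are a signal, counts divided by a size factor set for each pair, per the file headers and values. The fold change deposited by the authors is the ratio of the scaled columns. The authors deposited a p-value, an adjusted p-value and a status per contig. The 6 repeated count columns were identical between tables in 6 of 6 cases.

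From the counts, median-of-ratios size factors over the 70998 contigs read in all 4 libraries were 0.885 (control), 1.13 (24 h), 1.15 (36 h) and 0.89 (72 h). Ratios for the rule carry a pseudocount of 1; printed ratios of named contigs carry none. Their 95% intervals (Clopper-Pearson, exact) hold counting error only, and reads copied by PCR are not independent molecules. For 0 reads, 3 counts were put in place. With 1 library per group there were 0 residual degrees of freedom, so no test was run. Named contigs were those with the lowest upper bound, the most control counts, the nearest to the threshold, 0 reads at 72 h, the clusters with most members or with sums kept or lost, and the steadiest at 24 h and 36 h. Other named contigs were picked after their values were seen. The members and lists were chosen with earlier results of these data known. The calculation was tested on simulated data that held counting error only, with no spread between samples and no reads shared between contigs. Losses were placed there only in contigs with mean counts well above the control minimum. Python 3.11.15, scipy 1.17.1 and edgeR 4.0.16 (TMM factors only) were used.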

Additional observations from a re-analysis of the deposited data

How the results depend on the processing

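The number of members depended on the thresholds more than on the scaling. It was 144 with library totals, 162 with TMM, 159 with the authors' scaled columns, 153 and 127 with pseudocounts of 0.5 and 5, and 273 with the upper quartile, which moves all log2 ratios of 72 h to control by -0.18, those of 36 h by 0.10 and, for library totals, those of 24 h by -0.15. It was 446, 76 and 1035 with a control minimum of 10, of 200 or none, 1966 and 34 with a threshold of 2-fold or 8-fold at 72 h, 51 and 809 with 24 h and 36 h within 1.5-fold or 4-fold, 87 clusters with counts summed per cluster, and 75 with the whole interval at or below 0.25. Chosen after seeing the data were the rule without the 24 h library (344), without the 36 h library (600) and for contigs alone in their cluster (55).

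With no minimum, 2-fold, 8-fold, within 1.5-fold, within 4-fold and cluster sums in turn, the contigs low at 24 h alone numbered 770, 1660, 110, 111, 1282 and 109, those low at 36 h alone 506, 1338, 22, 16, 720 and 50, and those high at 72 h alone 13709, 1597, 128, 156, 1014 and 167. Minimums of 10 and 200 gave 237 and 61 low at 36 h alone and 836 and 90 high at 72 h alone; the other alternatives stayed within 1.5 times of the reported numbers. In 72 h over 36 h, 151 members were at least 2-fold and 35 at least 8-fold lower, and over 24 h 35 were at least 8-fold lower. Cluster sums at least 8-fold lower at 72 h numbered 7. For 72 h against the control, 12 members had an unadjusted p-value under 0.05 in the authors' deposited table and 0 an adjusted one under 0.05 or 0.1. The share of members alone in their cluster was 66.6% with a minimum of 10, 26.3% with 200 and 31.9% to 37.5% over the scalings, each chosen after seeing the data. Of 21 named members, the 72 h ratio stayed inside its interval for 21 with library totals and with TMM and for 13 with the upper quartile, and at or below 0.242 in each. No paired analysis was possible because each condition has 1 library. Depth limits single contigs: 22 members had fewer than 10 reads at 72 h.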
